A study of Mus musculus with 2 samples.

Results

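The cells described here were keratin-positive mouse skin cells that detected Pparg or Aldh3a1 together with other genes of a fixed marker set, but at most 1 gene of a mature sebocyte set. They numbered 613 of the 18186 barcodes deposited, 570 in the control library and 43 in the library in which miR-200b was induced. They are called Pparg/Aldh3a1 cells below. A barcode qualified with at least 1000 unique molecular identifiers (UMIs, counted RNA molecules), at least 500 genes and under 15% mitochondrial UMIs. It also needed at least 30 keratin UMIs and fewer than 20 Col1a1 and Col3a1 UMIs per 10000. Finally it had to detect Pparg or Aldh3a1, at least 4 of the 7 genes Aldh3a1, Igfbp4, Pparg, Lpl, Ncam1, Prlr and Angptl4, and at most 1 of the 8 genes Awat1, Awat2, Cidea, Mc5r, Elovl3, Scd3, Dgat2l6 and Cyp2g1. Those measured values chose the cells, so levels of these 15 genes are given as descriptions.

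The study profiled dorsal skin of mice on postnatal day 3 with droplet single-cell RNA sequencing of polyadenylated RNA, and its title asks how the microRNA-200 family acts on sebaceous gland fate and on SOX9. Of the 2 libraries, the control had the genotype Wildtype and the induced library the genotype miR-200b induced. Both carried the treatment Dox (doxycycline, a drug that switches on inducible transgenes), and in both the epidermal and dermal cell suspensions were mixed 30 to 70 before loading. The promoter and construct of the induction, the strain, the sex and the number of animals in each library are not given in the sources used here. Each group was a single library, which leaves no replicates to test on. Intervals are 95% intervals that cover counting error only, since animal-to-animal spread was not measured.

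The sebaceous gland opens into the upper hair follicle through a short duct and renews itself from basal progenitors at its rim. Their progeny fill with wax esters, triglycerides and other lipids and then burst into the duct. PPARG, a nuclear receptor for fatty acids, switches on lipid storage genes in this lineage, and SOX9, a transcription factor of the hair follicle, is needed for the gland to form. MicroRNAs repress messenger RNAs that pair with their seed, bases 2 to 8 counted from the 5′ end.

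The induced microRNA and the rest of its family are shown because the family falls into groups with different seeds, and the 3′ UTR matches described at the end use the first of them. The mature sequences, from RefSeq on GRCm38.p6, are written 5′ to 3′ with the seed in capitals.
mmu-miR-200b-3p: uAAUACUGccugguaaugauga
mmu-miR-200c-3p: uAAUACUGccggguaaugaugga
mmu-miR-429-3p: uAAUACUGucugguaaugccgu
mmu-miR-200a-3p: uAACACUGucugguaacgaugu
mmu-miR-141-3p: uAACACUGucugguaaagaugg
The first 3 share the seed AAUACUG and the other 2 the seed AACACUG. miR-200b-3p lies at chr4:156055685-156055706 on the minus strand, inside the span of Gm13648 (chr4:156052715-156059802, minus strand), annotated as a processed transcript. miR-200a-3p and miR-429-3p lie within the same span, while miR-200c-3p and miR-141-3p lie on chromosome 6.

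The control library held 9072 barcodes with 100409201 UMIs and the induced library 9114 barcodes with 119705137 UMIs. Of these, 5178 and 5258 passed the limits on UMIs, genes and mitochondrial share, and 4170 and 4475 of those were keratin-positive. In all, 74 barcode sequences occurred in both libraries, 4 of them among the control Pparg/Aldh3a1 cells and 0 among the induced ones. The median depth of the Pparg/Aldh3a1 cells was 16190 UMIs in the control and 18707 in the induced library, against 16167 and 20833 in all keratin-positive cells. Doublet scores put 31 control (5.44%) and 4 induced Pparg/Aldh3a1 cells (9.30%) among the 7% of highest scores of their library.

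Pparg/Aldh3a1 cells made up 570 of 4170 keratin-positive cells in the control library, 13.7% (exact binomial interval 12.6 to 14.7). Among 4475 keratin-positive cells with miR-200b induced there were 43, or 0.961% (0.696 to 1.29). Induced over control, the log2 ratio of the shares was -3.83, or 14.2-fold lower, with an interval of 10.4 to 19.9. The rule sets these counts, and they show how uneven the material behind the rest is. Mature sebocytes, taken as keratin-positive cells detecting at least 4 of the 8 mature genes, numbered 193 and 4.

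The whole distribution of the 7 genes was lower in the induced library. In the control library 763 keratin-positive cells detected none of them, 997 detected 1, 839 detected 2, 626 detected 3 and 945 detected 4 or more. In the induced library 1716 detected none, 1582 detected 1, 819 detected 2, 277 detected 3 and 81 detected 4 or more. At least 1 of Pparg and Aldh3a1 was found in 26.7% of control and 2.86% of induced keratin-positive cells.

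**Figure D1:**
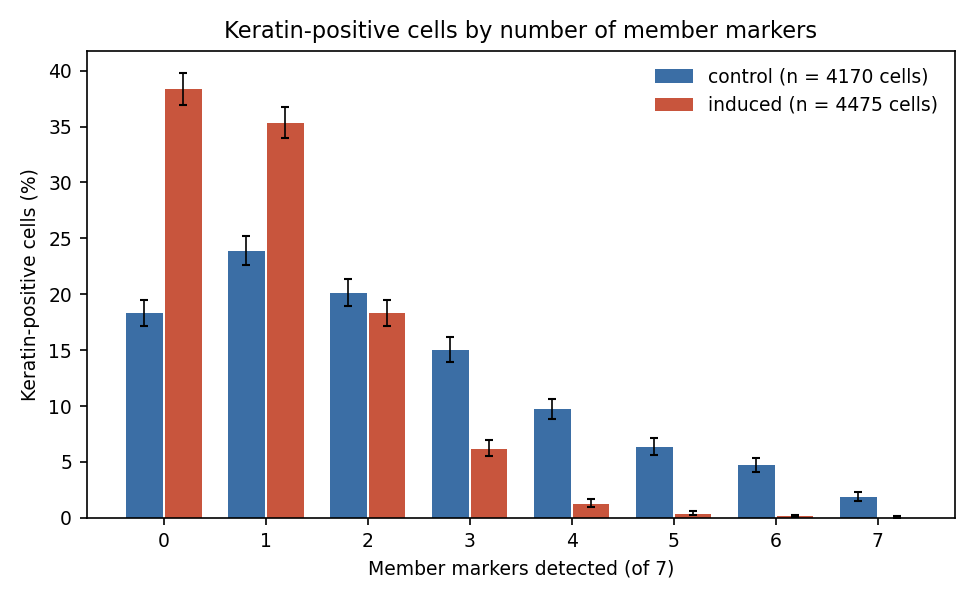
Percent of keratin-positive cells (vertical axis) by the number of the 7 genes of the rule detected in the cell (horizontal axis). Shown are the control library (4170 cells) and the induced library (4475 cells). Bars carry exact 95% binomial intervals, and the induced cells pile up at 0 and 1 gene while 945 control cells against 81 induced cells detect 4 or more.

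Just outside the threshold, 141 control cells detected 3 of the 7 genes and met every other condition, beside 192 with 4, 167 with 5, 150 with 6 and 61 with 7. In the induced library the numbers were 25 just outside, then 23, 13, 6 and 1. At the other edge, 203 control and 15 induced Pparg/Aldh3a1 cells detected 1 mature gene, and 84 and 2 further cells were left out for detecting 2. Pparg alone was detected in 157 control Pparg/Aldh3a1 cells, Aldh3a1 alone in 185 and both in 228. The induced cells leaned to Pparg, with 27 detecting it alone, 7 detecting Aldh3a1 alone and 9 detecting both.

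The genes of the rule behaved unlike one another within the control cells. Igfbp4, which binds insulin-like growth factors, was detected in 566 of 570 cells, with a median of 455 CPM (UMIs of the gene per 1000000 UMIs of the cell). Lpl, the lipase that frees fatty acids from lipoproteins, was found in 458 cells and Ncam1, an adhesion molecule, in 454. Aldh3a1, an aldehyde dehydrogenase abundant in cornea, was found in 413, Pparg in 385, Prlr, the prolactin receptor, in 344, and Angptl4, a PPAR target that inhibits lipoprotein lipase, in 310. The pooled level of Aldh3a1 was 128 CPM in these cells, 5.09 in mature sebocytes and 7.71 in the other keratin-positive cells. Pparg was at 106 CPM in Pparg/Aldh3a1 cells, 224 in mature sebocytes and 33.9 in the other cells. Ncam1 was at 245 CPM and at 14.9 in mature sebocytes, whereas Lpl was at 170 and 198 and Prlr at 101 and 183. Angptl4 was at 137 and 25.0 CPM. Since these genes chose the cells, the levels only describe them.

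Keratin-poor, collagen-high cells of the same library are given as a background, which can hold both free RNA and RNA of their own. With every cell thinned to 2000 UMIs, Aldh3a1 was detected in 22.5% and Pparg in 17.0% of the control Pparg/Aldh3a1 cells. In 540 collagen-high cells the shares were 0.370% and 0.741%. The rule required 1 of the genes in every Pparg/Aldh3a1 cell, so the order of these shares is no finding. Without thinning the shares in the collagen-high cells were 2.21% and 5.35%, at a median of 9531 UMIs against 16190. Ncam1, Lpl and Angptl4 were less specific, being detected in 86.0%, 48.9% and 46.7% of the collagen-high cells. At 2000 UMIs Angptl4 was found in 14.6% of those and in 18.4% of the Pparg/Aldh3a1 cells. Of 542 collagen-high cells, 19 met the marker conditions.

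The working name of these cells is sebaceous progenitor-like or duct-like, and the data bore out its second term only in part. Of the 9 genes listed for the sebaceous duct and upper follicle, none was past 2-fold higher and 4 were past 2-fold lower in the control Pparg/Aldh3a1 cells than in the other keratin-positive cells, with a median log2 ratio of -0.99. Here and below, past 2-fold refers to the ratio of CPM plus 20, over genes with at least 50 UMIs in both groups together. Over all 13112 genes, 0.191% were past 2-fold higher and 1.37% lower, 1.56% in all, and the median log2 ratio was 0.00. Krt79, the keratin of the duct lining, stood at 1157 CPM, against 2603 in the other cells and 5868 in mature sebocytes. It was nonetheless detected in 533 of the 570 cells, and at 2000 UMIs in 58.1% of them against 32.8% of the other keratin-positive cells. Its cell median was 510 CPM, below the 3881 of mature sebocytes. Krt17 stood at 2635 against 3482 CPM. Defb6, an upper-follicle defensin, was at 1.81 CPM and Atp6v1c2 at 6.40 CPM, against 63.8 and 32.6. Cst6, a cystatin of the upper follicle and gland, reached 482 CPM only through 2 cells, which held 82.4% of its UMIs, and without them it was 85.6 CPM. Plet1 (201 against 120 CPM), Lrig1 (144 against 72.5) and Gata6 (29.0 against 12.2), which mark the junction between follicle, gland and duct, were higher than in the other cells without passing 2-fold. The cell median of the 9 summed genes was 2939 CPM, close to the 3101 of the other keratin-positive cells. Pooled levels of the 9 genes were thus mixed, with 4 past 2-fold lower and Plet1, Lrig1 and Gata6 higher without passing 2-fold. The cells are named by their 2 defining genes.

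Basal keratinocyte genes were expressed. The 7 listed summed to 12500 CPM, against 19742 in the other keratin-positive cells, with cell medians of 11741 and 15432. Of the 7, none was past 2-fold higher and 1, Krt14, was past 2-fold lower than in the other keratin-positive cells, with a median log2 ratio of 0.02. Krt15, a keratin of follicle stem and progenitor cells, was at 3837 CPM against 3789, Krt5 at 3153 against 4878 and Krt14 at 4747 against 10420. Itga6, the integrin that holds basal cells to the basement membrane, was at 242 CPM against 162, and Trp63, the master regulator of stratified epithelium, at 317 against 209. Spinous and granular genes were the reverse. All 8 were past 2-fold lower, with Krt1 at 91.3 against 4034 CPM and Krt10 at 152 against 4233 CPM.

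Genes of several kinds had the highest ratios against the other keratin-positive cells. Of the 6 outer root sheath genes listed, 1 was past 2-fold higher and none lower, with a median log2 ratio of -0.42. Among those with the highest ratios outside the rule, Lgr6 came first, the R-spondin receptor that marks stem cells above the bulge and in the gland, at 142 CPM against 45.6 in the other keratin-positive cells. It was detected in 438 of 570 cells. Fst, which encodes the activin inhibitor follistatin, was at 877 against 358 CPM, and Nfatc1, a transcription factor of quiescent follicle stem cells, at 147 against 50.6. Sostdc1, a secreted BMP and Wnt inhibitor, was at 1088 against 497 CPM, Pthlh, a parathyroid hormone relative made by keratinocytes, at 156 against 57.3, and Gjb6, connexin 30, at 116 against 38.3. Egr2, Csgalnact1, Sftpc, Hspa1a and Cxcl10 were also among the highest. Sftpc, known as surfactant protein C of the lung, was at 43.0 against 6.98 CPM and came from 161 cells. Cxcl10, a chemokine, came from 43 cells, with 34.7% of its UMIs in 2 of them.

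Regulators of the gland were present. Of 14 measured, Lgr6 was past 2-fold higher and none was lower. Sox9 was at 365 CPM (Poisson interval 354 to 377), between 345 in the other keratin-positive cells and 409 in upper follicle cells, and below the 743 CPM of outer root sheath cells. Upper follicle cells were keratin-positive cells with at least 3 of Krt79, Lrig1, Plet1, Gata6 and Defb6 (1016 cells). Pparg/Aldh3a1 cells and mature sebocytes were left out of them. Outer root sheath cells had at least 2 of Lhx2, Tbx1 and Lgr5 and belonged to none of the other classes (1031 cells). In mature sebocytes Sox9 was at 189 CPM. Cebpb and Cebpa, lipid-lineage transcription factors, were at 918 and 186 CPM, against 642 and 174 in the other cells. Prdm1, a repressor linked to the gland, was at 6.30 CPM and detected in 49 cells, so its level is poorly fixed.

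Most lipid genes of sebocytes were far below their levels in mature sebocytes. Among the 14 measured genes of sebocyte differentiation outside the rule, none was past 2-fold higher and 8 were lower than in the other keratin-positive cells, which include the mature sebocytes. The cell median of the summed list ran the other way, at 2064 CPM against 1139 in the other keratin-positive cells. It was 1306 in upper follicle cells and 988 in outer root sheath cells. Against the 193 mature sebocytes all 13 measured were past 2-fold lower, with a median log2 ratio of -3.84. The 8 mature genes chose both groups, from opposite ends. The direction of this comparison was thus largely set by the choice, and its lipid gene levels are given as descriptions. In that comparison 6.08% of 10691 genes were past 2-fold higher and 6.09% lower, 12.2% in all, with a median log2 ratio of 0.09. Scd1, which desaturates fatty acids, was at 17.5 CPM against 6033, Elovl6, which lengthens them, at 28.7 against 6561, and Soat1, which esterifies cholesterol, at 10.8 against 1833. Fabp5, a fatty acid carrier, was at 295 against 18835 CPM. Cholesterol synthesis was lower for 16 of 19 genes, with Msmo1 at 67.5 against 2044 CPM, fatty acid synthesis for 11 of 14 and triglyceride and droplet genes for 13 of 15.

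A few lipid genes were already at appreciable levels. Acsbg1, which activates very long chain fatty acids, was at 182 CPM in Pparg/Aldh3a1 cells, against 63.4 in upper follicle cells and 10.3 in outer root sheath cells, and at 808 in mature sebocytes. Plin2, the coat protein of lipid droplets, was at 222, 105, 66.4 and 1352 CPM in the same order. Mgst1, a membrane glutathione transferase abundant in sebocytes, was at 284, 174, 50.6 and 3527, and Ldhb, a lactate dehydrogenase subunit, at 668, 283, 270 and 1949. These 4 genes do not stand for their lists. Scd1 (17.5 against 24.5 CPM), Elovl6 (28.7 against 42.0), Fasn (22.2 against 29.0) and Fabp5 (295 against 1536) were lower than in upper follicle cells. Against upper follicle cells, 2 of 13 measured sebocyte differentiation genes were past 2-fold higher and 2 lower, with a median log2 ratio of -0.10. For fatty acid synthesis 0 were higher and 1 lower of 15, and for triglyceride and droplet genes 0 and 1 of 16. Against upper follicle cells 0.11% of 11856 genes were past 2-fold higher and 1.16% lower, 1.27% in all, with a median log2 ratio of 0.02. Those with high ratios included Acsbg1 (log2 ratio 1.27), Ldhb (1.18), Nfatc1 (1.05) and Tgfb2 (1.04). Duct genes are no evidence in that comparison, since they chose the upper follicle cells.

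Basal and growth genes separated these cells from mature sebocytes in the other direction. Of the 7 basal genes, 6 were past 2-fold higher, as were 15 of 16 G2/M genes and 9 of 10 S phase genes. For this paragraph's counts against mature sebocytes, the shares over all 10691 genes were 6.08% higher and 6.09% lower. The highest ratios were those of Fst (877 against 36.5 CPM), Ccnd2, a G1 cyclin (794 against 51.4), Ccn1, a matricellular growth signal (log2 ratio 3.47), Pdgfa, a growth factor for dermal cells (660 against 41.7), Ptn and Smoc2. The Wnt list had 5 of 13 past 2-fold higher and none lower. Wnt4, a secreted Wnt ligand, was at 232 against 19.6 CPM, but at 319 in the other keratin-positive cells. Wnt3 was at 2.10 CPM against 33.6 in the other keratin-positive cells, and Tcf7l2, a nuclear partner of beta-catenin, at 118 against 95.1. Hedgehog genes did not pass 2-fold in either comparison, 9 being measured against the other cells and 7 against mature sebocytes. Of 12 hormone and nuclear receptors measured against mature sebocytes, 2 were past 2-fold higher, Vdr, the vitamin D receptor (82.3 against 20.1 CPM), and Thra, a thyroid hormone receptor (129 against 47.6).

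Dividing cells were frequent. With each cell thinned to 2000 UMIs, 172 of 570 Pparg/Aldh3a1 cells (30.2%, 26.4 to 34.1) held at least 2 UMIs of the 16 G2/M genes. The share was 2.60% of 192 mature sebocytes, 27.7% of upper follicle cells, 26.0% of outer root sheath cells and 21.6% of all other keratin-positive cells. The interval lay clear of mature sebocytes and overlapped those of the upper follicle and outer root sheath cells. Without thinning the shares were 57.2% and 33.7% in Pparg/Aldh3a1 cells and mature sebocytes, whose median depths were 16190 and 32710 UMIs.

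Markers of other skin cell types were low. Of 8 adipocyte genes, which share PPARG with sebocytes, Adipoq, Car3 and Cidec were at 0, and the summed level was 6.87 CPM, against 34.7 in the other keratin-positive cells. The 5 melanocyte genes summed to 1.91 CPM and the 6 immune genes to 8.11, and the 6 fibroblast genes to 137 against 241 in the other cells. The 12 stress and immediate early genes summed to 12866 CPM, against 11653 in outer root sheath cells, 9937 in upper follicle cells and 3762 in mature sebocytes. The cell median was 9946 CPM, against 9658, 9087 and 1923 in the same order and 9401 in the other keratin-positive cells. Against the other keratin-positive cells the list had a median log2 ratio of -0.02. Of the 12, Hspa1a, a heat shock chaperone, was past 2-fold higher than in the other keratin-positive cells, at 2577 against 1172 CPM, and 11 were past 2-fold higher than in mature sebocytes. The part of this stress signal in the other differences was not tested.

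Along the count of mature genes, several basal genes were lower and lipid genes higher from set to set. Control cells that met the other marker conditions fell into 367 with no mature gene, 203 with 1, 109 with 2 or 3 and 137 with 4 to 8, and only the first 2 sets belong to the Pparg/Aldh3a1 cells. Krt5 was at 3383, 2766, 1697 and 376 CPM in the 4 sets and Krt15 at 4030, 3512, 2466 and 771. Not every basal gene followed: Krt14 was at 4647, 4916, 6406 and 6395 CPM, and Itga6 at 234, 255, 193 and 45.0. Plin2 was at 191, 275, 522 and 983, Acsbg1 at 148, 239, 440 and 832, and Mgst1 at 235, 366, 1035 and 3971. These 3 lipid genes were thus ordered within the Pparg/Aldh3a1 cells already. Scd1 was at 13.5, 24.1, 218 and 5984 CPM and Elovl6 at 25.7, 33.9, 286 and 7788, so that most of their difference lay beyond the rule's limit. Pparg was at 88.9, 134, 204 and 229 CPM. Aldh3a1 was at 121, 139 and 117 CPM in the first 3 sets and at 6.81 in the last, and Ncam1 at 245, 246, 113 and 19.3. The summed G2/M genes were at 1755, 1883, 1277 and 215 CPM. Median depth was 16348, 15879, 17315 and 32551 UMIs, so deeper cells could reach the last set more easily.

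**Figure D2:**
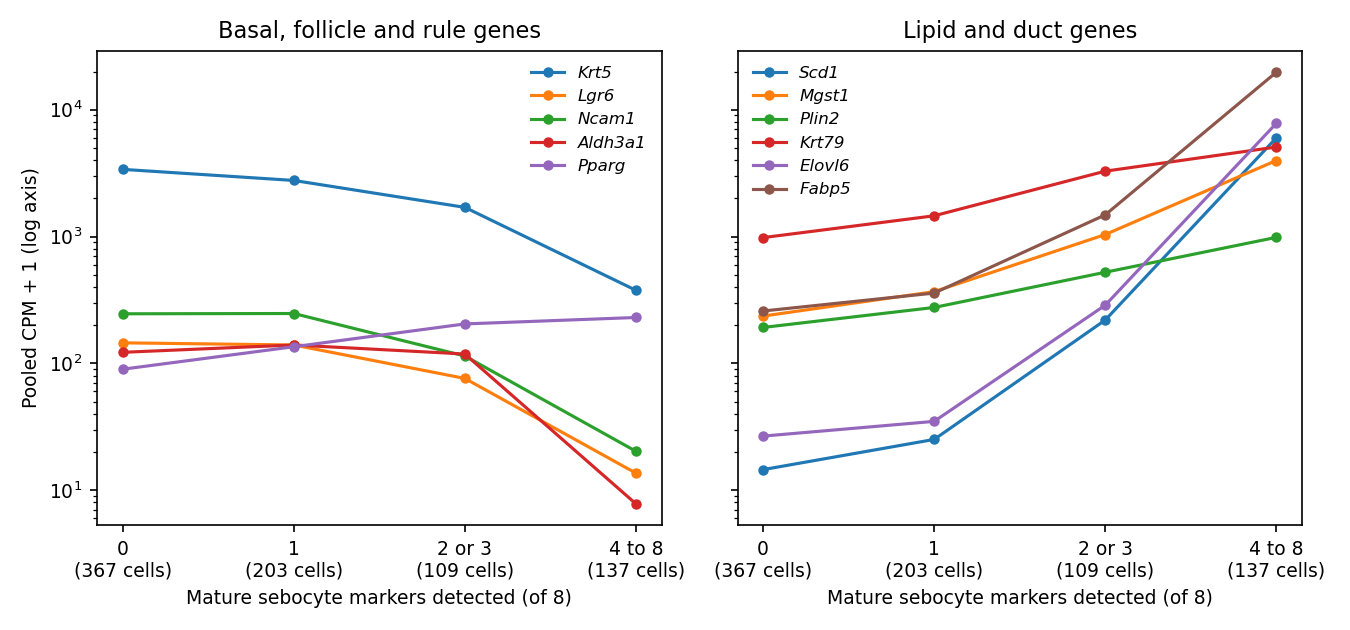
Pooled CPM plus 1 on a log axis (vertical) of basal, early and lipid genes in control cells that met the other marker conditions, split by how many of the 8 mature sebocyte genes they detected (horizontal: 367, 203, 109 and 137 cells). Pparg/Aldh3a1 cells are the first 2 positions, and Krt5 goes from 3383 to 376 CPM across the 4 while Scd1 goes from 13.5 to 5984.

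Some genes outside the rule were ordered by the number of the 7 genes detected. From 3 detected (just outside) through 4, 5, 6 and 7, Plin2 was at 94.3, 154, 193, 291 and 348 CPM, and Acsbg1 at 56.2, 109, 152, 269 and 283. These lipid genes do not stand for their lists. The summed other sebocyte differentiation genes were at 2629, 1823, 2025, 2379 and 2690 CPM, and the summed fatty acid synthesis genes at 440, 378, 353, 362 and 385. Krt79, the duct keratin, ran the opposite way, at 2105, 1583, 1149, 790 and 670 CPM. Lhx2, a follicle transcription factor, was at 195, 104, 94.1, 64.5 and 58.3. The set just outside also differed in Krt10, at 2902 CPM against 190, 135, 144 and 94.7 in the others. The summed stress genes ran upwards with the count, from 9932 to 17341 CPM, and their part in these orders was not tested. Median depth stayed between 15728 and 18408 UMIs across the 5 sets.

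Cells with Pparg and cells with only Aldh3a1 differed in a few genes. Plin2 was at 257 CPM in the 157 cells with Pparg only, 300 in the 228 with both and 118 in the 185 with Aldh3a1 only. Acsbg1 was at 187, 277 and 79.0 CPM and Ncam1, a gene of the rule, at 355, 286 and 130. The summed other sebocyte differentiation genes were at 2255, 2524 and 1611 CPM, Ldhb at 614, 883 and 480, Fabp5 at 464, 225 and 254 and Soat1 at 16.2, 15.7 and 2.07. Summed fatty acid synthesis genes were close, at 390, 361 and 360 CPM, as were summed cholesterol synthesis genes at 1068, 1036 and 1005 and Scd1 at 17.8, 19.1 and 15.5. Krt5 was highest in the cells with Aldh3a1 only, at 3968 CPM against 2652 and 2693. Krt79 was highest in the cells with Pparg only, at 1944 CPM against 770 with both and 1031 with Aldh3a1 only. The summed duct and upper follicle genes were at 7279, 3009 and 4655 CPM in that order, of which Cst6 made 1100, 47.5 and 519. Detection of a gene at about 100 CPM depends on depth, and the median depths of the 3 sets were 15132, 16528 and 17247 UMIs.

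Clustering of the 570 control cells gave 4 clusters, which are described by their leading genes and left unnamed. Cluster 1 (181 cells) was led by Hspa1a, Ccnd2, Lpl and Sostdc1. It detected Aldh3a1 in 86.7% of cells and Clca3a2, a chloride channel regulator, in 69.6%. Cluster 2 (146 cells) was led by the division genes Top2a and Hmgb2, detected Mki67 in 97.3% of cells and was the deepest, with a median of 23435 UMIs. Cluster 3 (140 cells) was led by S100a6, Krt17, Gsn and Ncam1, and detected Pparg in 87.9%, Nfatc1 in 92.1%, Lhx2 in 77.1% and Aldh3a1 in 45.0% of cells. It detected Clca3a2 in 13.6% of cells. Cluster 4 (103 cells) was led by Atf3, Neat1, Ier3 and Mt1. Its summed stress genes were the lowest of the 4 clusters, at 10000 CPM against 13526, 11460 and 16728 in clusters 1 to 3. Some duct genes were highest in it, with Krt79 at 3256 CPM against 881, 575 and 665, Plet1 at 430 against 129, 137 and 211, and the 9 summed at 10416 against 2756, 3164 and 4885. Lrig1 was lowest in it, at 111 against 155, 144 and 157 CPM, and Gata6 was at 27.5 against 34.8, 27.3 and 24.7. That sum includes Cst6, at 2336 CPM in cluster 4, and 2 of the 570 cells held 82.4% of the Cst6 UMIs. Cst6 was detected in 44.7% of its cells and in 37.6% to 42.9% of the cells of the others. High-scoring doublets made up 2.86% to 8.90% of a cluster, the highest being cluster 2.

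Within the induced library, a few genes outside the rule were picked to set the 43 cells beside the other keratin-positive cells. Genes past 2-fold were not counted over all genes here, so the picked genes do not stand for the whole comparison. Fst was at 990 CPM in them and 152 in the other cells, Lgr6 at 122 and 34.7, Nfatc1 at 120 and 26.2 and Lrig1 at 109 and 31.7. These 4 genes were also higher in the control Pparg/Aldh3a1 cells than in the other control cells. At 2000 UMIs Lgr6 was detected in 23.3% of the induced Pparg/Aldh3a1 cells, 10.2% of upper follicle and 9.80% of outer root sheath cells of that library. Nfatc1 was detected in 11.6%, 8.02% and 9.80% and Lrig1 in 18.6%, 12.8% and 9.61%, in the same order. Krt15 was at 2263 and 480 CPM, Plin2 at 104 and 17.4 and Mgst1 at 151 and 39.9 in the induced library. In the control library these 3 were not past 2-fold higher, at 3837 and 3789 CPM for Krt15, 222 and 218 for Plin2 and 284 and 502 for Mgst1, where the other cells include 193 mature sebocytes. At least 2 G2/M UMIs at 2000 UMIs were found in 17 of 43 cells (39.5%, 25.0 to 55.6), against 13.9% of the other keratin-positive cells of the induced library, and the interval spans the 30.2% of the control cells.

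Between the libraries, 0.885% of 9942 genes were past 2-fold higher and 0.473% lower in the induced Pparg/Aldh3a1 cells, 1.36% in all, with a median log2 ratio of -0.01. The highest ratios were carried by few cells. Krt1 was at 3101 CPM in the induced cells and 91.3 in the control cells, but without the 2 cells with most of its UMIs it was at 78.5 CPM. Krt10, Krt16, Stfa3, Calm4 and Krtap17-1 were likewise concentrated in 2 cells. Of the 43, 3 had mixed signatures, 2 with at least 100 Krt1 and Krt10 UMIs per 10000 and 1 with at least 10 UMIs per 10000 of the melanocyte genes, and 2 of the 3 had doublet scores in the top 7%. Without them, over 9905 genes, 0.747% were past 2-fold higher and 0.414% lower, 1.16% in all. Spinous and granular genes past 2-fold higher numbered 4 of 6 with and 1 of 6 without the 3 cells.

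The 7 genes of the rule had lower pooled levels in the induced cells. They chose the cells in both libraries, at least 4 of the 7 being required, so this is a description. Of the 7, none was past 2-fold higher and 3 were past 2-fold lower, with a median log2 ratio of -0.97, and without the 3 mixed cells 1 was, with a median of -0.94. Aldh3a1 was at 128 CPM (121 to 135) in the control and 51.1 (38.7 to 66.3) in the induced cells, and in 16 of 43 cells. Lpl was at 170 (162 to 178) and 70.9 (56.1 to 88.3), Ncam1 at 245 (236 to 255) and 116 (96.6 to 138), and Angptl4 at 137 (130 to 144) and 35.9 (25.6 to 48.9). Pparg was closer, at 106 (99.6 to 112) and 66.4 (52.1 to 83.3), and Igfbp4 was at 466 and 280 and Prlr at 101 and 43.1. The intervals do not cover the spread between animals or cells.

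Outside the rule, Cst6 had the lowest ratio (482 against 51.1 CPM), through the 2 control cells described above. The lower genes that did not rest on a few cells were led by Alad and Acsbg1. Alad, which makes porphobilinogen in heme synthesis, was at 549 CPM in the control and 125 in the induced cells, with cell medians of 518 and 129, and it was detected in 560 of 570 and 35 of 43 cells. Acsbg1 was at 182 and 42.2 CPM, detected in 443 and 20 cells. Anp32a, a nuclear phosphatase inhibitor, was at 218 and 62.8 CPM, and Oat, a mitochondrial enzyme of ornithine breakdown, at 101 and 23.3. Cebpa, a lipid-lineage regulator, was at 186 and 78.9 CPM and was past 2-fold lower. These genes were lower in upper follicle cells too, with log2 ratios of -2.27 for Alad, -1.06 for Acsbg1, -1.32 for Anp32a, -2.29 for Oat and -1.04 for Cebpa, against -1.98, -1.70, -1.53, -1.48 and -1.06 in the Pparg/Aldh3a1 cells.

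**Figure D3:**
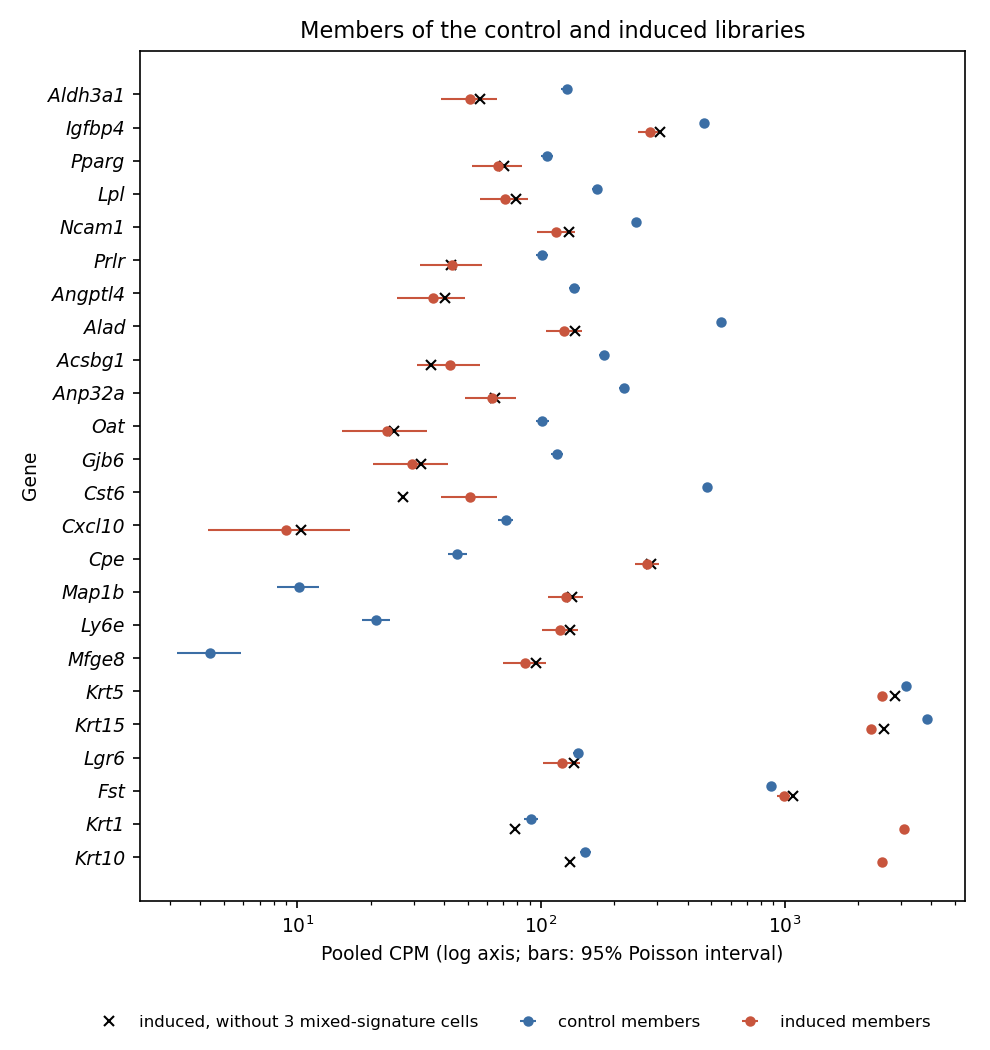
Pooled CPM on a log axis (horizontal) of selected genes (vertical) in the Pparg/Aldh3a1 cells (members) of the control and induced libraries, with 95% Poisson intervals, and crosses for the induced cells without the 3 mixed-signature cells. Alad stands at 549 and 125 CPM and Cpe at 45.4 and 273, while the cross of Krt1 lies far below its induced point.

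Higher genes that did not rest on a few cells were led by Map1b, Mfge8, Cpe and Ly6e. Cpe, a carboxypeptidase that trims peptide hormones, was at 45.4 CPM in the control and 273 in the induced cells, detected in 162 of 570 and 39 of 43. Map1b, a microtubule-associated protein, was at 10.1 and 126 CPM, detected in 71 and 25 cells. Mfge8, a secreted bridge for the uptake of dying cells, was at 4.39 and 86.1 CPM in 30 and 21 cells, and Ly6e, a surface protein, at 21.1 and 120 in 149 and 32. In upper follicle cells the same genes had log2 ratios of 1.41 for Cpe, 1.71 for Map1b, 1.44 for Mfge8 and 1.58 for Ly6e, beside 2.16, 2.28, 2.12 and 1.77 in the Pparg/Aldh3a1 cells. Epcam, an epithelial adhesion molecule, was at 366 and 875 CPM and Igf1r, the receptor of insulin-like growth factor, at 32.0 and 102. Each was the only gene of its list past 2-fold, 1 of 10 epithelial adhesion genes with a median log2 ratio of 0.13 and 1 of 5 insulin-like growth factor genes with a median of -0.20. Their log2 ratios were 1.21 for Epcam and 1.23 for Igf1r, and 0.49 and 1.12 in upper follicle cells.

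Krt15, Fst and Sox9 are given beside their levels in upper follicle cells. Krt15 was at 3837 and 2263 CPM in control and induced Pparg/Aldh3a1 cells, and at 3502 and 615 in upper follicle cells. Fst was at 877 and 990 CPM, against 526 and 191 in upper follicle cells. Sox9 was at 365 (354 to 377) and 433 (396 to 474) CPM, against 409 and 280 in upper follicle cells. The cell medians of Sox9 ran the other way, at 245 and 190 CPM, and 28.0% of its UMIs in the induced cells lay in 2 cells. Without the 2 highest cells it was at 361 and 372 CPM, and at 2000 UMIs it was detected in 46.0% and 46.5% of the cells. The induced cells were chosen by the same markers as the control cells, and the difference between the cell classes was not tested. Zeb1 and Zeb2, well-known targets of the family in mesenchymal cells, were at 0.0955 and 0.477 CPM in the control cells and allow no comparison. The summed stress genes were lower in the induced cells, at 8329 against 12866 CPM, with a list median log2 ratio of -0.48, and their part in these differences was not tested.

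The transcript over the miR-200b locus was detected in a smaller share of the induced Pparg/Aldh3a1 cells than of the other keratin-positive cells as a whole. Gm13648 was at 2.77 CPM in the control cells, detected in 25 of 570, and at 255 CPM in the induced cells, detected in 28 of 43. The induced cells had a median of 99.4 CPM and a highest value of 959, while the other keratin-positive cells of that library detected it in 3594 of 4432 and had a median of 498. With all cells thinned to 2000 UMIs, it was found in 13 of 43 Pparg/Aldh3a1 cells (30.2%, 17.2 to 46.1), in 56.7% (55.2 to 58.2) of the other keratin-positive cells and in 4.17% of 192 collagen-high cells. It was found in 53.8% of upper follicle cells and in 40.7% (36.5 to 44.9) of outer root sheath cells, and the latter interval lies within that of the Pparg/Aldh3a1 cells. Without thinning the collagen-high cells detected it in 9.71%, at a median of 6503 UMIs against 18707 in the Pparg/Aldh3a1 cells. The 3′ libraries read Gm13648 and not the mature microRNA, so the level of miR-200b itself was not measured.

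**Figure D4:**
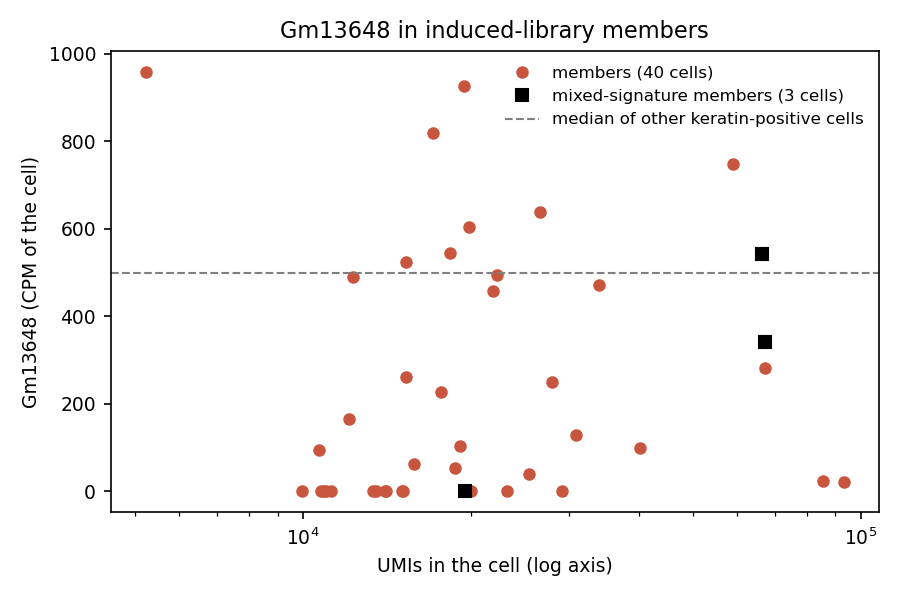
Gm13648 in CPM of the cell (vertical axis) against the UMIs of the cell on a log axis (horizontal) for the 43 Pparg/Aldh3a1 cells (members) of the induced library, with the 3 mixed-signature cells as squares and the median of the other keratin-positive cells as a dashed line at 498 CPM. Of the 43 cells, 15 are at 0, and the highest reaches 959 CPM.

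Matches to the miR-200b seed were looked up in annotated 3′ UTRs (GENCODE vM21, GRCm38) to describe the genes above. The letters searched were CAGTATT, on the transcript strand, and 2782 of 20869 genes held them (13.3%). None of the 7 genes of the rule held the match, nor did Sox9. Of 33 genes looked up, 5 held 1 match each (15.2%), close to that background: Acsbg1, Oat, Prdm1, Nfatc1 and Smad7. Of these, Acsbg1 and Oat were past 2-fold lower in the induced cells, and Nfatc1 was lower without passing 2-fold. Alad, Anp32a, Cebpa, Cst6, Cxcl10, Gjb6 and Gjb2 were past 2-fold lower without a match. The matches of the first 3 are shown with 10 bases on each side, 5′ to 3′ on the transcript strand, with the match in capitals, from chr9:54604905-54604911, chr7:132557655-132557661 and chr10:44438449-44438455, all on the minus strand.
Acsbg1: atgtaattttCAGTATTaaacctttta
Oat: catttattttCAGTATTtctttgaata
Prdm1: cagcttttctCAGTATTtgtgtttttg
A match is only a description of the letters, and Prdm1 was at 6.30 CPM in the control and 25.1 in the induced cells.

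Across genes measured in both libraries' Pparg/Aldh3a1 cells, the 1564 with the match had a median log2 ratio of -0.08, with 61.8% below 0. The 8113 without it had a median of 0.00, with 49.9% below 0. Without the mixed cells the medians were -0.06 and 0.02. For the 294 genes with 2 or more matches the median was -0.11. In upper follicle cells the medians were -0.10 with and -0.01 without the match. Genes with a match have longer 3′ UTRs, with a median of 2381 bases against 813, and the part of length in the shift was not tested.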

How the data were processed

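The deposited values were raw UMI counts per gene and barcode of 2 libraries, 1 per group. They were made by the authors with Cell Ranger 6.0.0 on mm10, per the submitters' processing notes. The filters of the opening were applied. No cell was removed as a doublet, because the automatic Scrublet threshold marked 3 control and 2 induced cells. Leaving out the top 7% of scores was an alternative. Counts of a cell class were summed and scaled to 1000000 UMIs (CPM), and ratios were taken of CPM plus 20, over genes with at least 50 UMIs in both groups together. A gene past 2-fold was called. No p-value was computed. Intervals are Poisson for levels, exact binomial (Clopper-Pearson) for shares and conditional binomial for ratios of shares, all at 95%. Cells were thinned to 2000 UMIs where the text says so, and other detection counts are at full depth. The code was tested on simulated data. Of the 32285 gene identifiers, 32235 were found in GENCODE vM21.

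Outside the rule, genes were named by the 12 highest and 8 lowest ratios against other keratin-positive cells, 10 and 10 against mature sebocytes and 6 and 6 in the other contrasts, with at least 100 UMIs, and from the gene lists. A few genes that this rule named are not reported here. The cells and the lists were chosen with earlier results of these data known. The comparison with upper follicle cells, the removal of mixed-signature cells, the removal of the 2 highest cells per gene, the clustering (Leiden, resolution 0.5) and the removal of shared barcodes were chosen after seeing the data. Software was scanpy 1.11.5, igraph 0.11.9, leidenalg 0.10.2, matplotlib 3.10.9, pandas 2.3.3, scipy 1.17.1 and numpy 2.4.6 on Python 3.11.15.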

Additional observations from a re-analysis of the deposited data

How the results depend on the processing

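The log2 ratio of the shares stayed negative under every alternative run. Each alternative counted cells by the same genes of the rule, so the kept sign is a description and no independent support. Values between the libraries that rest on few cells changed direction. Without the 3 mixed-signature cells the median log2 ratio of the spinous and granular genes went from 1.73 to -0.08, and Fabp5 in the induced cells went from 831 to 219 CPM, against 295 in the control cells. Leaving out the 2 highest cells of each gene gave 36 genes higher and 104 lower between the libraries, against 88 and 47. That alternative takes 2 of 43 induced but 2 of 570 control cells, which lowers the induced levels by construction. The share of Pparg/Aldh3a1 cells depended on depth and on the thresholds of the rule. After thinning to 5000 UMIs it was 7.06% in the control and 0.329% in the induced cells, with the log2 ratio at -4.43. After thinning to 2000 UMIs it was 1.77% and 0.0%, and the log2 ratio of -4.61 is then a bound, computed from a floor of 3 counts in the induced library. With at least 3 of the 7 genes the shares were 17.1% and 1.52%, and with at least 5 they were 9.07% and 0.447%, a log2 ratio of -4.34. With no mature gene allowed they were 8.80% and 0.626%. With up to 2 mature genes allowed the control share was 15.7%, and among all passing cells it was 11.0%. The least negative log2 ratio over the 13 alternatives was -3.49, and the most negative other than that bound was -4.43. Counts of genes past 2-fold depended on the number added to CPM. With 5 added they were 496 against other keratin-positive cells, 2707 against mature sebocytes and 451 between the libraries, and with 50 added they were 93, 670 and 57, beside 204, 1301 and 135. Against mature sebocytes the split of higher and lower genes was 650 and 651, but 1554 and 1153 with 5 added and 263 and 407 with 50 added. With the mean of per-cell CPM the count against other keratin-positive cells was 131. The share with G2/M UMIs was 57.2% at full depth and 43.0% with at least 1 UMI required. Leaving out the top doublet scores or the shared barcodes kept every count within 1.5 times. No paired analysis was possible because each group had 1 library and no result came from a test. Depth limits what can be said of genes detected in few of the 43 induced cells.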

Other observations

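Against mature sebocytes, 2 of 16 measured aldehyde and xenobiotic genes were past 2-fold higher and 4 lower in the control Pparg/Aldh3a1 cells, and 1 of 9 Notch genes was higher and 1 lower, beside 12.2% of all genes either way. Ahr, the receptor for dioxin-like compounds, was at 106 CPM in them, 61.8 in the other keratin-positive cells and 35.0 in mature sebocytes. Its target Cyp1a1 was at 0.191 CPM in them and at 135 in mature sebocytes. Of the 18 aldehyde and xenobiotic genes measured against the other keratin-positive cells, none was past 2-fold higher and 1 was lower, Aldh3b2, at 18.6 against 117 CPM. Mature sebocytes had 539 CPM of Aldh3b2. Jag2, a Notch ligand, was at 90.2 CPM in Pparg/Aldh3a1 cells and 6.95 in mature sebocytes, and Notch3 was at 1.62 and 25.8. None of the 10 Notch genes and none of the 11 EGF receptor genes was past 2-fold either way against the other keratin-positive cells.

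Between the libraries, the connexin genes Gjb6 and Gjb2 were both lower in the induced Pparg/Aldh3a1 cells, at 116 and 29.6 CPM for Gjb6 and 87.5 and 19.7 for Gjb2. They were detected in 360 and 277 of the 570 control cells and in 15 and 8 of the 43 induced cells. In upper follicle cells the log2 ratios were -1.47 for Gjb6 and -1.19 for Gjb2, beside -1.46 and -1.44. Tgfb2, a growth factor of follicle cells, was at 108 CPM in the control and 246 in the induced cells, detected in 224 of 570 and 38 of 43, with a log2 ratio of 1.06 and one of 0.29 in upper follicle cells. These genes were picked after their values were seen.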
